A study of Homo sapiens with 2 samples.

Results

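Vesicle coat and sorting genes were examined in a ChIP-seq peak list of RFX6 in HCC cells. The members were all protein-coding genes of the RefSeq GRCh38 table whose symbol is VPS or SEC followed by a digit, together with the 9 genes of the COPI coat. This rule gave 73 of 20033 protein-coding genes, namely 35 VPS genes, 29 SEC genes and the 9 COPI genes. The list came from MHCC-97H cells, an HCC cell line, in which RFX6 carrying an HA tag was overexpressed from a plasmid and precipitated with an anti-HA antibody. The series holds 1 such ChIP library and 1 input library, and only the former has a peak list here. There were no replicates, so no test was possible, and the read depth behind each peak is unknown. Of the 5022 distinct intervals, the 5019 on chromosomes 1 to 22 and X were used. Each carries a whole-number score of unstated meaning, used below only as a rank (median 30, quartiles 22 and 39, range 13 to 170).

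The products of these genes move proteins between the membranes of the cell. Newly made secretory proteins enter the endoplasmic reticulum (ER) through the SEC61 channel, leave it in vesicles coated by COPII, and COPI-coated vesicles return escaped residents from the Golgi. The VPS genes, named after yeast mutants that missort vacuolar proteins, act mainly later, in tethering at endosomes and lysosomes, in the recycling of receptors and in the budding of vesicles into endosomes. RFX6 is a winged-helix transcription factor, and proteins of the RFX family bind the X-box motif in DNA. Hepatocytes secrete most plasma proteins and therefore depend on this traffic.

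An interval was found at a gene end (its midpoint within 1 kb of either end) for 23 of the 73 members, or 31.5% (95% Wilson interval 22% to 42.9%). Among all protein-coding genes the share was 15.5%. Another 2 members (2.74%), COPZ2 and SEC22C, had an interval only in the gene body, compared with 4.06% of all genes. Thus 25 members (34.2%, 24.4% to 45.7%) had an interval at an end or in the body, against 19.5% of all genes, and 48 had none. The Wilson intervals cover the counting of genes only. They describe this list, and members of a complex are not independent of each other.

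Before the values, promoters are printed to show where the intervals lie and which short motifs are there. Sequences are from RefSeq (GRCh38.p14), 5′ to 3′ on the strand of the gene, and run from 200 bases before a listed start site to 30 bases from it on. Capitals mark matches, on either strand, to any of 9 strings: GTTGCC (the conserved core of the X-box of RFX proteins), CCAAT (bound by NF-Y), CACGTG (E-box), TCACGTGA (a longer E-box that overlaps it), TGACGTG (core of the unfolded protein response element, also close to the cAMP response element), GGGGCGGGG (GC box), CCGGAAG (ETS factors), CGCATGCG (NRF1) and AAGATGGCG (YY1). A match is a string of letters and not a binding site that was tested.

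The first set shows COPII and translocation genes whose interval covers most or all of the printed stretch. SEC24A (chr5:134648585-134648814, plus strand) had the highest score among the members. SEC13 (chr3:10321083-10321312, minus strand), SEC61A1 (chr3:128052237-128052466, plus strand) and SEC61A2 (chr10:12129441-12129670, plus strand) are shown for comparison.
SEC24A: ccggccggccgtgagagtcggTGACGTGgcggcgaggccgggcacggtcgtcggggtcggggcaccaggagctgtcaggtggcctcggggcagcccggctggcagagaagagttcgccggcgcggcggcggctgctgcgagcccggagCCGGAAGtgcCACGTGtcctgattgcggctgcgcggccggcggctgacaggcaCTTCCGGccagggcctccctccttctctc
SEC13: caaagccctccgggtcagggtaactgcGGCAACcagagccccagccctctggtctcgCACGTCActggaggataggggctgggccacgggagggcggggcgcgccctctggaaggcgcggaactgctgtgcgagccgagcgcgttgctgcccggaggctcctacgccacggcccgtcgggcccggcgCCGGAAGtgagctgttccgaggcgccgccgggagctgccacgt
SEC61A1: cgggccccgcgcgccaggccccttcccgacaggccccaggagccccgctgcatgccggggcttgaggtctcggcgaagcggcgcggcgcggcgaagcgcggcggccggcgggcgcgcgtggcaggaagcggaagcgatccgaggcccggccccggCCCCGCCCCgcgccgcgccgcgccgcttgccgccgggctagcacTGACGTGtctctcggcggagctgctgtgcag
SEC61A2: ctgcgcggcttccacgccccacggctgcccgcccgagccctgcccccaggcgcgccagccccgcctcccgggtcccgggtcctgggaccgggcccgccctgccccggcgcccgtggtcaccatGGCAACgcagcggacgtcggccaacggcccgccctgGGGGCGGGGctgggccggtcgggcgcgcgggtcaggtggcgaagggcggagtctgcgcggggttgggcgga

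The second set shows endosomal genes. In VPS29 (chr12:110502082-110502311, minus strand) 162 of the 230 printed bases lay in an interval, and in VPS11 (chr11:119067618-119067847, plus strand) 42 did, at the end of the stretch.
VPS29: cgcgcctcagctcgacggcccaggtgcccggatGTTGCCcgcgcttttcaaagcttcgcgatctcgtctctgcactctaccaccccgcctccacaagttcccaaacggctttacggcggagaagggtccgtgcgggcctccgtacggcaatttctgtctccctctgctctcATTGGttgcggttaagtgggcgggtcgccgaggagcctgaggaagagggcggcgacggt
VPS11: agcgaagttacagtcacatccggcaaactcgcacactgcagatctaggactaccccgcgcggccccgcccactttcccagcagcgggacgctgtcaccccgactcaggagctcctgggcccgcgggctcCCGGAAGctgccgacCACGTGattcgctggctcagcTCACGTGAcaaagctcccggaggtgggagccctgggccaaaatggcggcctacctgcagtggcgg

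The third set shows the internal start sites at which the body intervals of COPZ2 (chr17:48037768-48037997, minus strand) and SEC22C (chr3:42581938-42582167, minus strand) lay.
COPZ2: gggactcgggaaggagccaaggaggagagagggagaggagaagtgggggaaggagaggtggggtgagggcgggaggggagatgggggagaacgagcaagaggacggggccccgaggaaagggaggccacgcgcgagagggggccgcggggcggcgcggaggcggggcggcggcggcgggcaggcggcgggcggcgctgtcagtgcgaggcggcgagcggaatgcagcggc
SEC22C: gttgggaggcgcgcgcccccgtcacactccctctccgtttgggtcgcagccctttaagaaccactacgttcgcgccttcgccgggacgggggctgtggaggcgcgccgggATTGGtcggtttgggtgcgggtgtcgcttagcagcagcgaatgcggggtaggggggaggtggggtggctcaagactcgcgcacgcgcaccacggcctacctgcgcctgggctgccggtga

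The last pair carries TGACGTG at the start site although no interval reached the printed stretch. They are COPE (chr19:18919358-18919587, minus strand), whose interval lay farther upstream, and COPB2 (chr3:139389618-139389847, minus strand), whose nearest interval was about 412 kb from an end.
COPE: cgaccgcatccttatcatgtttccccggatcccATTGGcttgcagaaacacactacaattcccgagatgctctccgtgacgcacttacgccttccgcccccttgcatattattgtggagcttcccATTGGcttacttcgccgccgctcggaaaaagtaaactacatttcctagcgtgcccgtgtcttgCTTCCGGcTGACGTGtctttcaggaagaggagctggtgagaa
COPB2: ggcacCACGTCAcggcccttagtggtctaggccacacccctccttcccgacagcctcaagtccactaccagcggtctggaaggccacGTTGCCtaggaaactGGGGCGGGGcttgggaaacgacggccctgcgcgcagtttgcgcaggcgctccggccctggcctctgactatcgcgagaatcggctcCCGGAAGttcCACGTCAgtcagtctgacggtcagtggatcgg

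The COPI coat was examined first. ARCN1 (delta subunit), COPE (epsilon subunit) and COPG2 (1 of the paralogous gamma subunits) had an interval at an end, which makes 3 of 9 genes (33.3%, 12.1% to 64.6%). The ARCN1 interval (chromosome 11 from 118572435 to 118572645) scored 35, and its midpoint was 131 bp behind the start site. The COPG2 interval, on chromosome 7 from 130668552 to 130669033, had the same score of 35 and covered the start site. It was also 149.5 bp from an end of TSGA13. In contrast, the COPE interval (chromosome 19 from 18919715 to 18919915) had the lowest score of the list, 13. It lay 428 bp upstream of COPE and 100 bp from an end of DDX49, an RNA helicase gene. COPZ2, a zeta subunit, carried an interval of score 22 on chromosome 17 from 48037582 to 48037980. This was 10272 bp inside the gene, yet 16 bp behind a start site that RefSeq lists for COPZ2, and an end of the microRNA gene MIR152 was within 1 kb. The remaining COPI genes had no interval. Their ends were 7551 bp (COPZ1), 20.5 kb (COPG1), 76.2 kb (COPB1), 358 kb (COPA) and 412 kb (COPB2) from the nearest one.

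In the COPII group, 3 of 12 genes had an interval at an end (25%, 8.89% to 53.2%). SEC24A, a cargo-binding subunit of the inner coat, had an interval with a score of 83 on chromosome 5 from 134648485 to 134648921. It ranked 42 of 5019 (percentile 99.2). At SEC13, a subunit of the outer coat, an interval on chromosome 3 from 10320920 to 10321284 scored 25, below the median of the list, although its midpoint was only 10 bp behind the start site. SEC24C was the exception in position. Its interval (chromosome 10 from 73772265 to 73772612, score 27) lay 277.5 bp beyond the far end of the gene, whereas it was 162.5 bp from an end of POFUT4. None of SEC16A, SEC16B, SEC23A, SEC23B, SEC23IP, SEC24B, SEC24D, SEC31A and SEC31B had an interval at an end or in the body. Thus the paralogues of the cargo-binding subunit were split, and both genes of the SEC23 pair, which activates the coat GTPase, were without one.

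Entry into the ER had a larger share, with 4 of 8 genes (50%, 21.5% to 78.5%). The channel subunits SEC61A1, SEC61A2 and SEC61B all had an interval, and the small subunit SEC61G had none. SEC61B, on chromosome 9, had the highest score of these, 65 (percentile 95.9). This interval, from 99221729 to 99221995, was 420 bp upstream of SEC61B and 80 bp from an end of ALG2, a mannosyltransferase gene of N-glycosylation. SEC61A1 and SEC61A2 both scored 39. The SEC61A1 interval was on chromosome 3 from 128052063 to 128052408, and the SEC61A2 interval was on chromosome 10 from 12129419 to 12129757. Among the auxiliary genes, SEC11C, a catalytic subunit of signal peptidase, had an interval with the score of 13, the lowest in the list (chromosome 18 from 59139557 to 59139756). SEC11A, SEC62 and SEC63 had none. Of the SEC22 genes, SEC22B, a SNARE between ER and Golgi, had an interval of score 32 on chromosome 1 from 120176176 to 120176416. SEC22C had a wide one of 859 bp and score 17 in its body (chromosome 3 from 42581601 to 42582459). The latter covered a listed internal start site of SEC22C and was 190 bp from an end of SS18L2. SEC22A had none.

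Tethering and recycling at endosomes came next. Of the 8 genes grouped here as HOPS and CORVET, with VPS33B counted among them, 3 had an interval (37.5%, 13.7% to 69.4%). These were VPS11, VPS18 and VPS33A, all part of the core that both complexes share. VPS18 scored 76 (chromosome 15 from 40894114 to 40894683, rank 72) and VPS33A scored 69 (chromosome 12 from 122266129 to 122266581, rank 143). VPS11 scored 33 (chromosome 11 from 119067806 to 119068020). VPS16, also of the core, had no interval, and neither had VPS39 and VPS41 of HOPS, VPS8 of CORVET, or VPS33B. VPS33B was the second closest outside the window, at 3601 bp.

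Retromer sorts receptors from endosomes back to the Golgi or the cell surface. Its subunits VPS35 and VPS29 both had intervals with high scores. At VPS35 the interval on chromosome 16 from 46689333 to 46689556 scored 63. It lay 266.5 bp upstream of VPS35 and 214.5 bp from an end of ORC6, a replication gene. At VPS29 there were 2 intervals on chromosome 12, namely from 110502150 to 110502394 with a score of 58 and from 110501690 to 110502070 with a score of 55. They flanked the start site, and both were within 1 kb of an end of RAD9B. The interval of score 58 was 161 bp from VPS29 but 59 bp from RAD9B. For the interval of score 55 these distances were 231 bp and 451 bp. The third subunit is encoded by VPS26A or VPS26B, whose nearest intervals were 144 kb and 254 kb away. Neither VPS26C nor VPS35L, the partners of VPS29 in the related retriever complex, had an interval (150 kb and 388 kb). In the GARP and EARP group, VPS51, common to both complexes, was the 1 gene of 5 with an interval (chromosome 11 from 65096210 to 65096409, score 27). VPS50, VPS52, VPS53 and VPS54 had none.

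The ESCRT group had the highest share, 5 of 9 genes (55.6%, 26.7% to 81.1%). VPS28 and the VPS37 paralogues belong to ESCRT-I, which recognises ubiquitinated cargo. VPS28 scored 27 (chromosome 8 from 144428365 to 144428593) and its interval was also 296 bp from an end of TONSL. VPS37A scored 41 (chromosome 8 from 17246657 to 17247131), and an end of CNOT7 was 37 bp from the midpoint. VPS37B scored 30 (chromosome 12 from 122895891 to 122896162). VPS37C had an interval at each end, on chromosome 11 from 61129645 to 61129906 (score 30) and from 61161300 to 61161627 (score 27). VPS37D was the paralogue without one. VPS4A, an ATPase that disassembles ESCRT-III, had intervals of score 33 and 31 on chromosome 16, from 69311132 to 69311363 and from 69311549 to 69311769, whereas its paralogue VPS4B had none. VPS25 and VPS36 of ESCRT-II had none either.

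Among the other members, VPS45, which acts on endosomal SNAREs, had an interval of score 39 on chromosome 1 from 150067449 to 150067816, 20.5 bp from an end of OTUD7B. VPS9D1 was the closest gene outside the window, as an interval of score 57 lay 1703.5 bp from its end. VPS72, which carries the VPS symbol but is a histone chaperone of chromatin remodelling complexes, had none. The VPS13 lipid transfer proteins (0 of 4 genes, Wilson upper limit 49.0%) and the SEC14-like lipid-binding proteins (0 of 6 genes, upper limit 39.0%) had no interval at an end or in the body. The VPS13 genes include long ones, and VPS13B with 864307 bp was the longest member. With few genes in each group, the Wilson intervals of all groups overlapped each other, so the groups could not be told apart by their shares.

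**Figure D1:**
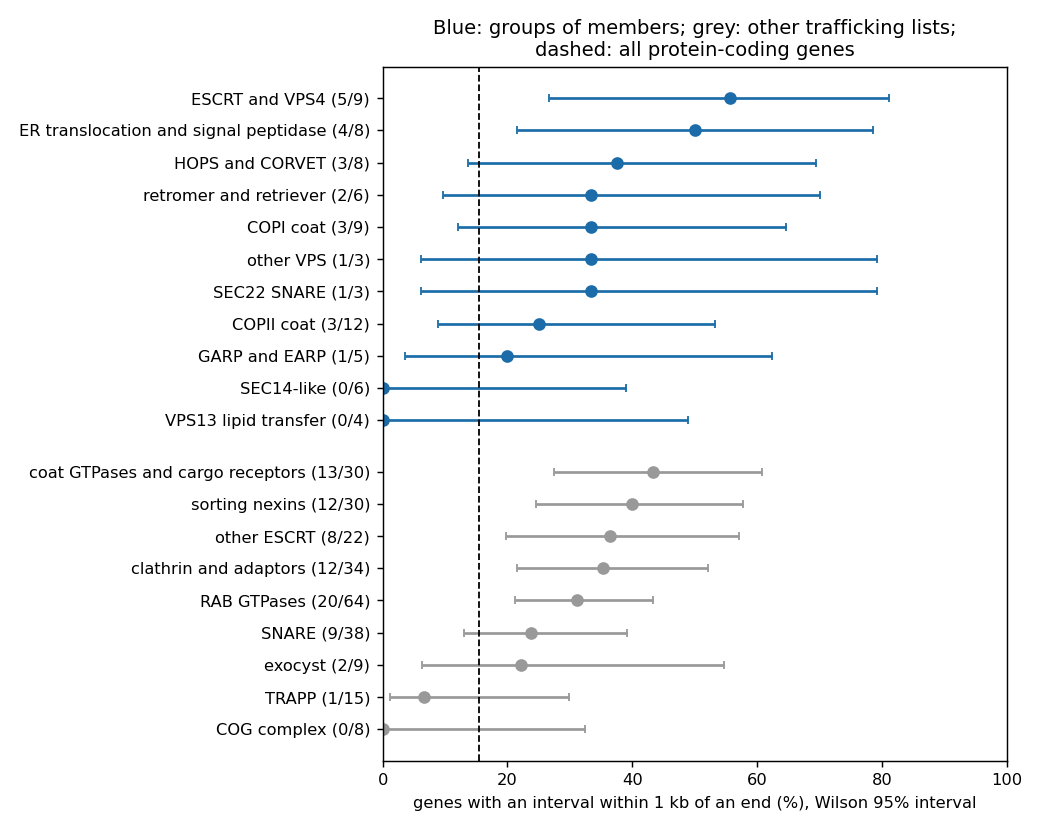
Share of genes with an interval within 1 kb of an end (x axis, percent), for the groups of members (blue) and for other trafficking lists (grey), with 95% Wilson intervals that cover the counting of genes only and with counts in the labels. The dashed line is the share of all protein-coding genes, 15.5%, which lies below the Wilson interval of the ESCRT group (26.7% to 81.1%) and the ER translocation group (21.5% to 78.5%) and within those of the other member groups.

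The scores of the members' intervals were then compared with those of other genes. The 23 genes had 26 intervals at their ends, with a median score of 34 (quartiles 27.8 and 51.5, range 13 to 83). The 3053 intervals at ends of all protein-coding genes had a median of 32 (quartiles 25 and 43). A score of at least 50 was reached by 7 of the 26 (26.9%) and by 505 of the 3053 (16.5%). The 7 were at SEC24A, VPS18, VPS33A, SEC61B, VPS35 and VPS29, the last with 2 intervals. Those of SEC61B, VPS35 and VPS29 were also within 1 kb of an end of another protein-coding gene. That gene was the nearer one for SEC61B, VPS35 and the VPS29 interval of score 58. At the other end of the range, COPE and SEC11C were at the floor of the list. The median width was 269.5 bp, compared with 282 bp for all genes. Of the 26 intervals, 9 (34.6%) were listed on 2 lines each, with the same score on both. More than 1 line was given for 22.3% of the 3053 intervals and for 18.4% of all 5019.

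**Figure D2:**
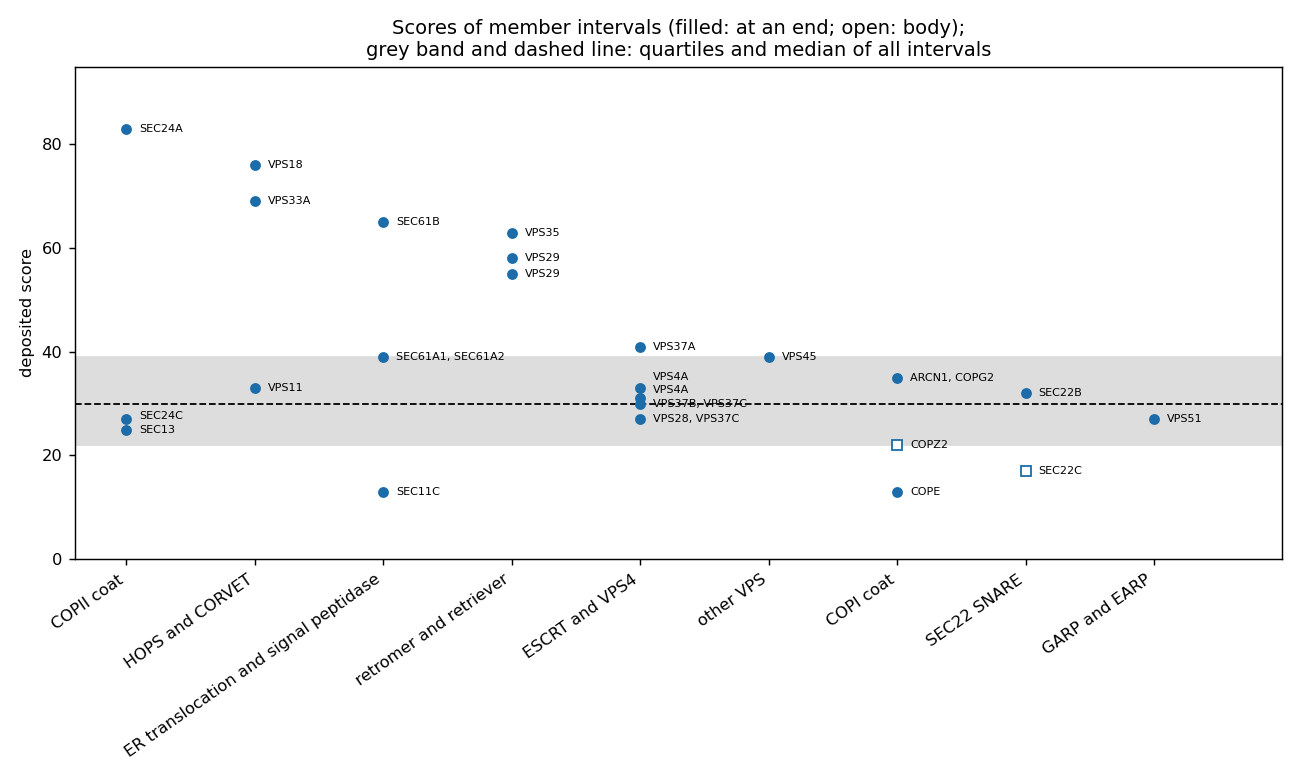
Deposited score (y axis, no unit) of each interval at members, by group along the x axis, with filled circles for intervals at a gene end and open squares for those in the body. The grey band and the dashed line give the quartiles (22 and 39) and the median (30) of all 5019 intervals; 7 end intervals lie at 55 or above, from VPS29 to SEC24A at 83.

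To see whether the intervals lay at the start of the genes, the start sites listed by RefSeq were used. Such sites were listed for 62 of the 73 members and not for VPS13B, VPS18, VPS26A, VPS28, VPS33A, VPS33B, VPS37A, VPS37C, VPS53, VPS72 and SEC24D. Of the 62, 19 (30.6%, 20.6% to 43.0%) had an interval within 1 kb of a listed start site, compared with 16.3% of the 15842 protein-coding genes with a listed site. COPZ2 and SEC22C were among the 19 through their internal start sites. SEC24C was the single gene with a listed site whose end interval lay elsewhere. The 21 intervals at these 19 genes were a median of 131 bp from the start site, whereas the median was 178 bp over the 3011 intervals of all genes. Within 300 bp were 18 of 21 (85.7%), compared with 72.7%. The midpoint was behind the start site in 9 of 21 (42.9%), compared with 55.6% for all genes. The start site itself was covered by 11 of the 21 (52.4%, compared with 41.9%). The intervals of COPE, SEC11C, SEC61A1, SEC61B and VPS35 and 1 of those of VPS29 lay wholly upstream of it. Those of ARCN1 and SEC22B and the other ones of VPS29 and VPS4A lay wholly behind it. For SEC61A1 the site used, at 128052437, was inside the gene, and the interval lay behind the other start site listed for SEC61A1. The sites used for SEC24A and VPS45 were inside the gene as well.

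**Figure D3:**
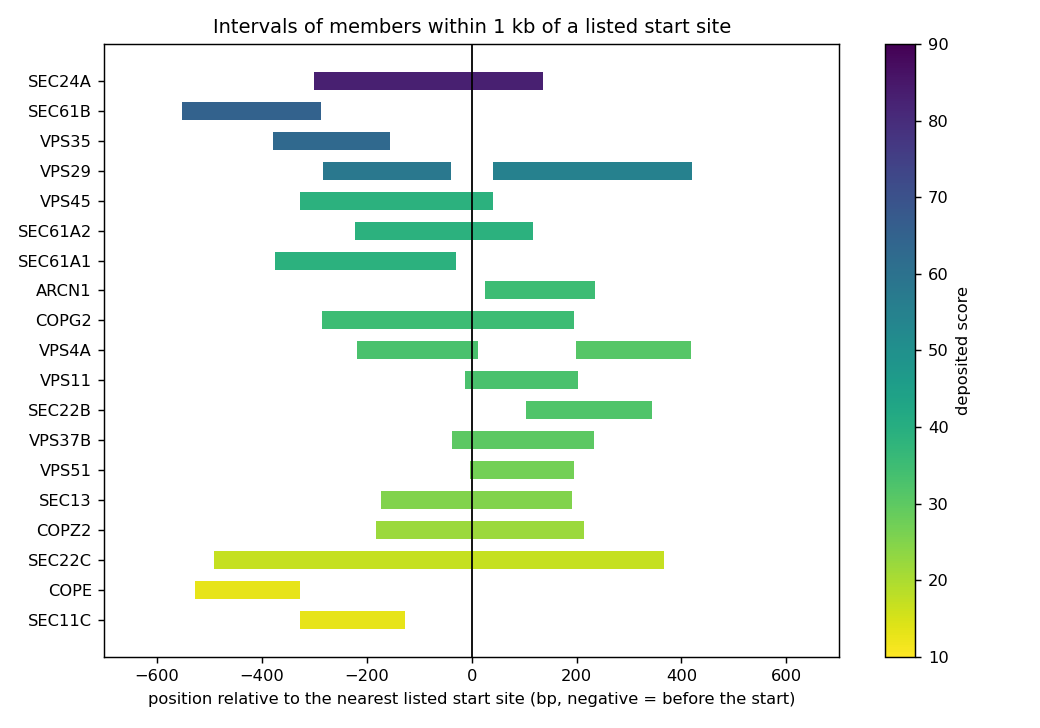
Position of the 21 intervals at 19 members relative to the nearest listed start site (x axis, bp in the direction of transcription, 0 at the start site), with 1 row per gene ordered by score and colour for the deposited score. The bars span the intervals; 11 of the 21 cross the start site, and the intervals of VPS29 lie on either side of it.

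Several of the intervals were near an end of a neighbouring gene as well. Of the 26 end intervals, 10 (38.5%, 22.4% to 57.5%) were also within 1 kb of an end of another protein-coding gene. Over all protein-coding genes, with each interval counted once for every gene that it was at, this held for 1118 of 3618 pairs of a gene and an interval (30.9%, 29.4% to 32.4%), a share within the Wilson interval of the members. They belonged to COPE, COPG2, SEC24C, SEC61B, VPS28, VPS29, VPS35, VPS37A and VPS45. Which gene of such a pair an interval belongs to cannot be told from the list. If each interval was given to the nearest protein-coding gene end alone, COPE, SEC24C, SEC61B, VPS35, VPS37A and VPS45 dropped out and 17 members were left (2674 of all genes, 13.3%). Neighbours were also counted without regard to intervals. Another protein-coding gene had an end within 1 kb of an end of 28 of the 73 members (38.4%, 28.1% to 49.8%) and of 28.5% of all genes. The share was 11 of 23 (47.8%) for members with an end interval and 17 of 50 (34.0%) for the others, and over all genes it was likewise higher with an end interval (41.0%) than without (26.2%). The median gene length was 25.6 kb in members with an end interval (range 4932 to 162511 bp) and 48.1 kb in those without (6151 to 864307 bp). Over all genes the order of the medians was the opposite, with 28.8 kb and 23.3 kb. The ranges of the members overlapped widely, and the difference was not tested.

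The promoter windows of RefSeq (250 bases before to 50 after a start site) were then compared in composition. The 19 windows of members that overlapped an interval had a median GC content of 69.3% and a median of 32 CpG dinucleotides. In the 64 windows of members without overlap these values were 63.0% and 24. Over all protein-coding genes they were 69.7% and 31 in windows that overlapped an interval, and 61.3% and 19 in the others. The member windows that overlapped an interval were hence close to such windows of all genes in both measures. Windows of some members with an end interval, such as COPE and SEC61B, were among the 64 without overlap.

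Of the strings searched, TGACGTG differed most between the SEC and COPI genes on the one side and the VPS genes on the other. This split of the members was not planned, and the string is named because its difference was the largest of the 9. TGACGTG was in a window of 11 of 37 SEC and COPI genes (29.7%, 17.5% to 45.8%) and of 0 of 25 VPS genes (upper limit 13.3%). Over all 15842 genes the share was 2.75%, and the Wilson intervals make no allowance for that choice. The 11 genes were COPA, COPB1, COPB2, COPE, SEC13, SEC16A, SEC16B, SEC23A, SEC24A, SEC61A1 and SEC62. Of these 4 had an end interval (COPE, SEC13, SEC24A and SEC61A1) and 7 had none. That is 22.2% of the 18 members with an end interval and 15.9% of the 44 without, compared with 3.73% of all genes with an end interval. In SEC24A and SEC13 the string was inside the interval, starting 179 and 143 bases before the start site. In COPE and SEC61A1 it was outside the interval, at a listed start site. The ETS string CCGGAAG was in 24 of 62 members (38.7%, 27.6% to 51.2%) and in 16.5% of all genes. It was in 9 of 18 members with an end interval (50%) and in 15 of 44 without (34.1%), and over all genes with an end interval the share was 23.7%. CACGTG was in 7 of 25 VPS genes (28.0%, 14.3% to 47.6%), 5 of 37 SEC and COPI genes (13.5%) and 10.9% of all genes, and its longer form TCACGTGA was in VPS11 and VPS26C, or 3.23% of the 62 members (0.889% to 11.0%) against 1.65% of all genes.

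The X-box core of the RFX family, GTTGCC, was about as frequent in members as elsewhere. It was in 11 of 62 members (17.7%, 10.2% to 29.0%) and in 16.2% of all genes. Members with an end interval had it in 3 of 18 cases (16.7%), namely SEC13, SEC61A2 and VPS29, and those without in 8 of 44 (18.2%). Over all genes with an end interval the share was 16.0%. Only this exact string in promoter windows was counted, so the shares do not show how frequent whole X-boxes are. Nor do they describe the sequence of the intervals. The windows of COPE, SEC22B, SEC24C and SEC61B, for example, did not overlap one. In SEC61A2 and VPS29 this string lay inside an interval, and in SEC13 it crossed the border of the interval. The other strings were found in members at shares whose Wilson intervals included those of all genes, namely CCAAT in 35.5% against 42.1%, GGGGCGGGG in 27.4% against 26.2%, CGCATGCG in 4.84% against 3.28% and AAGATGGCG in 1.61% (ARCN1) against 3.21%.

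**Figure D4:**
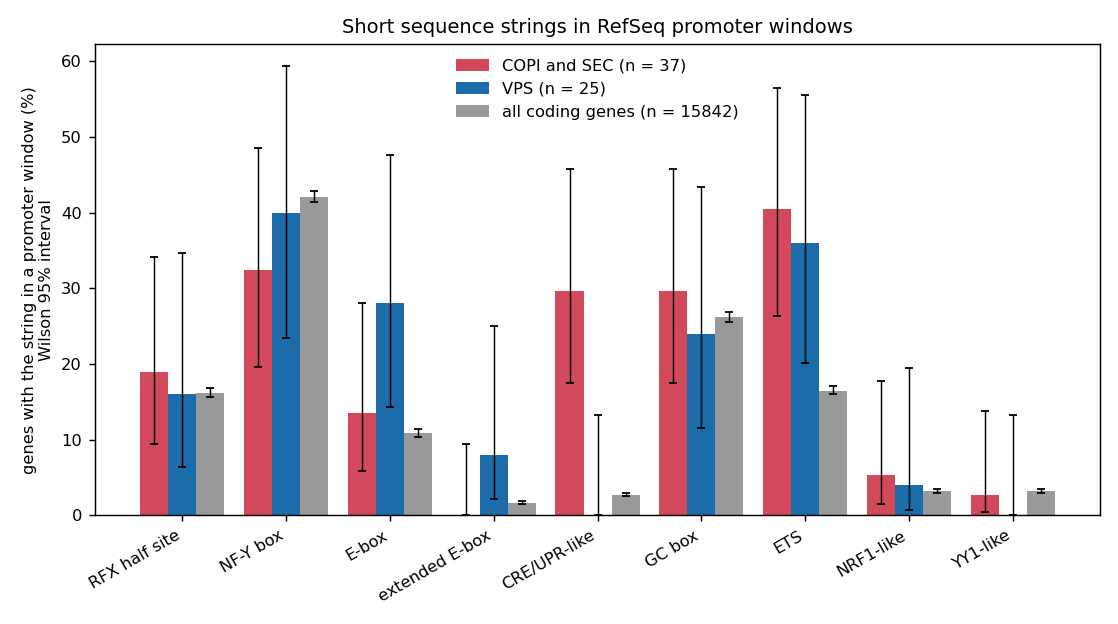
Share of genes with a short string in a RefSeq promoter window (y axis, percent) for the 37 COPI and SEC genes, the 25 VPS genes and all 15842 protein-coding genes with a window, with 95% Wilson intervals. The NF-Y box is CCAAT and CRE/UPR-like is TGACGTG, which is in 29.7% of COPI and SEC genes, 0 of the VPS genes and 2.75% of all genes. The split of the members was not planned, and TGACGTG is named because it differed most.

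Other genes of vesicle traffic, in lists of GTPases, cargo receptors, adaptors, tethers and SNAREs, were examined in the same way. Together 77 of 250 such genes had an interval at an end (30.8%, 25.4% to 36.8%), close to the 31.5% of the members. Among the coat GTPases, their regulators and cargo receptors it was 13 of 30 (43.3%), led by ARF5 with a score of 63, ARF3 with 50, and GBF1 and TMED4 with 40 each. SAR1B, the GTPase that starts the COPII coat, scored 33, and ARF1, which recruits COPI, scored 25; both are named for their role, after the values were seen. Sorting nexins, phosphoinositide-binding proteins of which some work with retromer, had 12 of 30 (40.0%), with SNX33 at 77 and SNX15 at 58. The remaining ESCRT genes had 8 of 22 (36.4%). SNF8, the partner of VPS25 and VPS36 in ESCRT-II, scored 102, above all members, and TSG101, the partner of VPS28 in ESCRT-I, scored 54. Clathrin and its adaptors had 12 of 34 (35.3%), with AP3M1 at 50 and CLTB at 45. RAB GTPases had 20 of 64 (31.2%), with RAB5A at 75, RAB22A and RAB8A at 59. SNARE genes had 9 of 38 (23.7%), with VAMP3 at 67. Of the tethering complexes in these lists, an interval was found for 2 of 9 exocyst genes (22.2%, EXOC7 at 27 and EXOC2 at 26), 1 of 15 TRAPP genes (6.67%, TRAPPC4 at 34) and 0 of 8 COG genes (Wilson upper limit 32.4%). The Wilson intervals of the SNARE genes and of these tethering complexes included the 15.5% of all genes.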

How the data were processed

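MHCC-97H cells overexpressing HA-RFX6 were analysed by ChIP-seq in 1 ChIP library, with 1 input library; groups were taken from the sample titles. Per the labels and the study's methods, the authors called peaks with MACS2 2.1.0.2; the aligner, and whether the input was the control, are not given in the sources used here. Each line of the deposited file gives an interval with a whole-number score, and the authors do not say what the score stands for. The file had 6214 lines, of which 1 was written with digit separators and was restored. Of the 5019 intervals used, 925 were on more than 1 line. Identical intervals were counted once with the highest score, and 3 mitochondrial intervals were set aside. Read depth is not known, and no unit other than the score was used.

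The labels name GRCh37 as the build. However, 60.8% of the intervals had their midpoint within 1 kb of a protein-coding gene end of the RefSeq GRCh38.p14 table, and 7.65% and 8.11% did after a move of 20 kb down and up. Coordinates were therefore read as GRCh38 and are given 1-based.

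The members and all lists were chosen with earlier results of these data known, and roles in complexes were assigned from general knowledge. Every member with an interval is named, all COPI and retromer genes, and of each further list at most 5 genes with an end interval, by highest score; SAR1B and ARF1 were named in addition for their role, after their values were seen. Counts were compared with all protein-coding genes as a description, and no test was made, since there was a single list. Assignment of intervals to genes was checked on simulated intervals placed by the same rule. This shows only that the rule was carried out as stated. Alternatives were score limits of 20 and 30, windows of 2 kb and 500 bp, any overlap of at least 1 bp, merging of intervals closer than 1 kb, nearest gene ends and the scoring of repeated lines. The use of start sites in place of gene ends was chosen after seeing the data. The comparison of strings between SEC and COPI genes and VPS genes was also not planned. Python 3.11.15, numpy 2.4.6, pandas 2.3.3, scipy 1.17.1 and matplotlib 3.10.9 were used.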

Additional observations from a re-analysis of the deposited data

How the results depend on the processing

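The number of members with an interval at a gene end, 23, ranged from 17 to 24 over the alternatives run. It was 21 for scores of at least 20 (13.8% of all genes), without COPE and SEC11C. With a score of 30 or more required it was 17 (9.50%), without SEC13, SEC24C, VPS28 and VPS51 as well. It was 24 within 2 kb (17.2% of all genes), where VPS9D1 was added, and 22 within 500 bp (13.3%), without SEC61A1. Any overlap left 23 (15.9% of all genes), and so did merging (15.3%). Listed start sites, chosen after seeing the data, gave 19 (16.3% of all genes with a listed site). Nearest gene ends gave 17 (13.3% of all genes). The 2 members with an interval in the body only became 1 for scores of at least 20 (3.51% of all genes), 0 for scores of at least 30 (2.52%) and 3 with a window of 500 bp (5.52%). The median score of 34 was 33 to 35 under the alternatives. No paired analysis was possible because the series has a single peak list, and for the same reason no replicate could be left out. At an unknown depth, the lack of an interval does not show that RFX6 was absent from a gene.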

Other observations

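After the promoter of SEC61A2 had been read, its X-box core was searched for with 2 more bases, as ATGGCAAC. This string was in 3 of 62 members (4.84%), namely SEC61A2, VPS39 and VPS9D1, and in 1.75% of all protein-coding genes with a promoter window. Among members with an end interval, SEC61A2 was the 1 gene of 18 that had it, and among all genes with an end interval the share was 1.19%.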
